A study of Homo sapiens with 12 samples.

Results

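The APOBEC3 genes are a family of 7 cytidine deaminases that lie side by side on human chromosome 22. The members were taken by symbol, as the rows named APOBEC3A, APOBEC3B, APOBEC3C, APOBEC3D, APOBEC3F, APOBEC3G and APOBEC3H, and all 7 were found among the 60660 genes quantified in each library. The family was chosen by the measured counts of APOBEC3D, which were few and lower with the piRNA mimic in 22Rv1, so every difference between mimic and control in these genes is given below as a description, without a test. The study transfected prostate cancer cells with a synthetic mimic of the PIWI-interacting RNA piR-4447944 or with a control oligonucleotide (NC-mimic), to look for mRNAs that change with the piRNA, and sequenced mRNA. The 4 groups were LNCaP with NC-mimic, LNCaP with piR-4447944 mimic, 22Rv1 with NC-mimic and 22Rv1 with piR-4447944 mimic, with 3 libraries each. All 4 groups shared the lipofectamine-3000 transfection and culture that the paper calls androgen-deprived, so no group was grown with androgen or left untransfected. In its other assays such medium was made with CS-FBS, serum stripped of steroid hormones, and for apoptosis it also held enzalutamide. The paper does not describe the medium of these libraries further. Both are established lines of human prostate cancer, so a difference between them is a difference between 2 lines. The labels do not say whether replicates were separate cultures, and the p-values below measure only the spread between these libraries.

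APOBEC3 proteins turn cytosine into uracil in single-stranded DNA, and are best known for damaging the DNA copies of retroviruses and for holding back retrotransposons. APOBEC3A, APOBEC3C and APOBEC3H have a single deaminase domain, whereas APOBEC3B, APOBEC3D, APOBEC3F and APOBEC3G have a pair of them. APOBEC3G and APOBEC3F act in the cytoplasm and are packed into virions, and HIV removes them through its Vif protein. APOBEC3B is mostly nuclear and is the member most often linked, with APOBEC3A, to clustered C-to-T mutations in tumours. Several members are induced by interferon and are abundant in lymphoid or myeloid cells. 22Rv1 cells are known to release the retrovirus XMRV.

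All 7 genes lie on the plus strand of chromosome 22. In the hg38 annotation the cluster runs from APOBEC3A (chr22:38952741-38963184) through APOBEC3B (chr22:38982347-38992804), APOBEC3C (chr22:39014257-39020352), APOBEC3D (chr22:39021113-39033277), APOBEC3F (chr22:39040604-39055972) and APOBEC3G (chr22:39077067-39087743) to APOBEC3H (chr22:39097224-39104067). A further gene model, AL022318.4 (ENSG00000284554.2, chr22:39014363-39033276), joins the first coding bases of APOBEC3C to the later exons of APOBEC3D. It is a readthrough and not a member, but its sequence decides how the counts of APOBEC3D can be read. The first 47 coding bases of the 3 transcripts are shown to make this visible, with the coding bases of the first exon in capitals and the start of the second exon in lower case:
APOBEC3D: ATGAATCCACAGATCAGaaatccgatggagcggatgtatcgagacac
AL022318.4: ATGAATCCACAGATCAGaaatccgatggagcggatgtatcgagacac
APOBEC3C: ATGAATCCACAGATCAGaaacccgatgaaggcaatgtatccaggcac
The capitals of APOBEC3D come from chr22:39021520-39021536 and those of the readthrough from chr22:39014363-39014379, and they have 0 differences. The lower-case bases of both come from the same exon, at chr22:39022822-39022851. APOBEC3C begins with the same exon as the readthrough and continues at chr22:39015595-39015624 in an exon of its own. After its first exon the readthrough has 2104 bases, and all of them stand in the longest transcript of APOBEC3D as 1 unbroken run. Of the 2022 stretches of 100 bases in the readthrough, 100% also occur in APOBEC3D, and 79.1% of the stretches of APOBEC3D also occur in the readthrough. No stretch of 100 bases of the readthrough is therefore absent from APOBEC3D.

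Most of the family can be told apart by such stretches. APOBEC3C and APOBEC3H shared 0% of their 100-base stretches with any other gene, APOBEC3G 3.54%, APOBEC3F 6.78%, APOBEC3A 9.16% and APOBEC3B 14.7%. APOBEC3D shared 80.2%. None of the shared stretches lay in a gene outside the family and the readthrough. The counts are RSEM expected counts, which split a read with several possible origins in fractions, and for APOBEC3B and APOBEC3F they were within 0.10 of a whole number in all 12 libraries.

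Between 12161091 and 22179601 expected counts were summed per library. The floor used below, 3 counts, was between 0.135 and 0.247 CPM (counts scaled to library size) and covers counting error only. The RMS difference in log2 CPM from the other 2 libraries of the group was between 0.411 and 0.488 in LNCaP and between 0.672 and 1.03 in 22Rv1. Replicate 3 of the 22Rv1 mimic group stood farthest apart, so the main differences of the members are also given without it. Other named genes are given only with it. All 9 luminal prostate markers reached 1 TPM (the level scaled to library size and transcript length) in every library, with summed levels of 4845 to 5301 TPM in LNCaP and 1893 to 2536 TPM in 22Rv1. Of 9 lymphoid markers at least 5 were at 0 in every library of each group, and their summed level was 0.05 to 0.57 TPM in LNCaP and 1.97 to 6.31 TPM in 22Rv1. The 6 myeloid markers summed to 0.14 to 2.65 TPM over all libraries, and the 5 fibroblast markers to 26.4 to 44.9 TPM in LNCaP and 4.86 to 23.4 TPM in 22Rv1. In each library most of the fibroblast sum came from a single gene, COL1A1, so it does not speak for the list. The part of these markers in the results was not tested.

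APOBEC3B and APOBEC3F made up nearly all of the family's mRNA in these cells. The TPM of the 7 members summed to 40.9 ± 5.23 (SD, n = 3) in LNCaP with NC-mimic, 41.7 ± 2.63 in LNCaP with the piR-4447944 mimic, 21.7 ± 2.19 in 22Rv1 with NC-mimic and 16.8 ± 5.64 in 22Rv1 with the piR-4447944 mimic. APOBEC3B held 70.0% ± 1.68 (SD, n = 3) of this sum in LNCaP with NC-mimic and 85.5% ± 1.38 in 22Rv1 with NC-mimic, and APOBEC3F held 26.2% ± 2.37 and 10.8% ± 1.37. In each of the 12 libraries APOBEC3B had a higher TPM than APOBEC3F. APOBEC3H came next in the 6 LNCaP libraries, at 0.93 to 2.02 TPM, above APOBEC3C at 0.03 to 0.19 TPM.

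**Figure D1:**
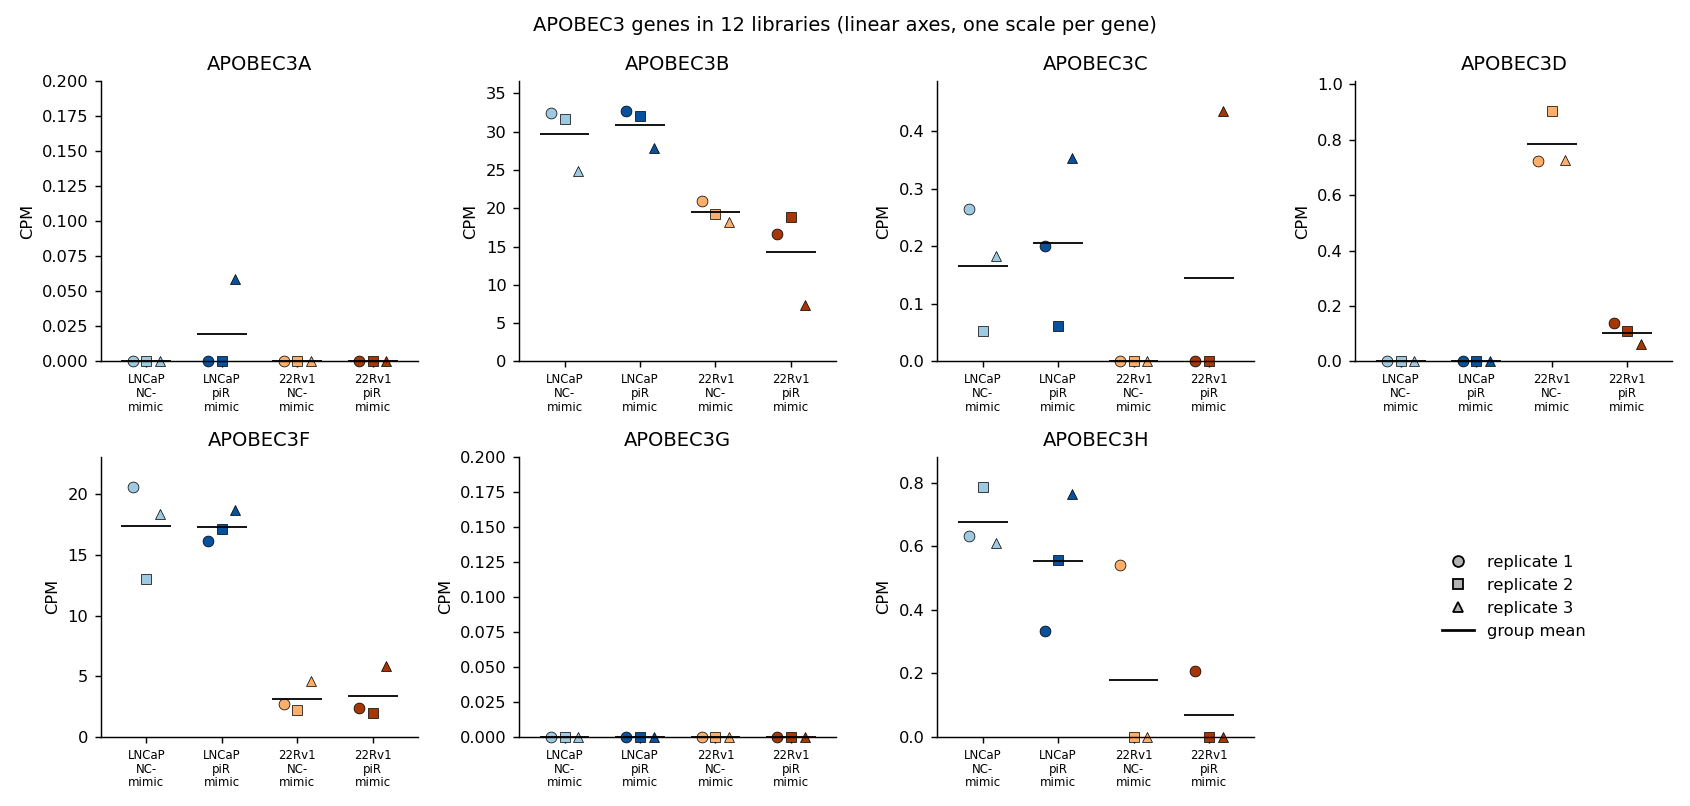
Each panel plots 1 APOBEC3 gene, with CPM on a linear vertical axis of its own, the 4 groups along the horizontal axis, 1 symbol per library and a bar at the mean of 3 libraries ("piR mimic" is the piR-4447944 mimic). APOBEC3B and APOBEC3F lay lower in all 6 libraries of 22Rv1 than in all 6 of LNCaP, whereas APOBEC3D had counts only in 22Rv1 and APOBEC3G had none.

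APOBEC3B, the nuclear member with a pair of deaminase domains, was the highest of the family in TPM. In LNCaP it stood at 32.5, 31.6 and 24.9 CPM with NC-mimic and at 32.7, 32.1 and 27.9 CPM with the piR-4447944 mimic. In 22Rv1 it stood at 21.0, 19.2 and 18.2 CPM with NC-mimic and at 16.7, 18.9 and 7.40 CPM with the mimic. Every LNCaP library was above every 22Rv1 library, and the lowest value, from replicate 3 of the 22Rv1 mimic group, rested on 118.94 counts.

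APOBEC3F, a cytoplasmic member that is packed into virions, was the second in TPM. In LNCaP it stood at 20.6, 13 and 18.4 CPM with NC-mimic and at 16.1, 17.1 and 18.7 CPM with the mimic. In 22Rv1 it stood at 2.71, 2.19 and 4.60 CPM with NC-mimic and at 2.41, 2.00 and 5.84 CPM with the mimic. The lines did not overlap, and in both groups of 22Rv1 replicate 3 was the highest.

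APOBEC3H, a single-domain member whose protein varies in stability between people, was low. In LNCaP it had 12, 15 and 10 counts with NC-mimic and 5, 9 and 13 counts with the mimic. In 22Rv1 it had 12, 0 and 0 counts with NC-mimic and 3, 0 and 0 with the mimic. All of its 22Rv1 counts lay in replicate 1 of each group, where they came to 0.542 and 0.207 CPM.

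APOBEC3C, a small single-domain member, was at the limit of detection. In LNCaP it had 5, 1 and 3 counts with NC-mimic and 3, 1 and 6 counts with the mimic. In 22Rv1 it had 0 counts in 5 libraries and 7 counts in replicate 3 of the mimic group. RSEM gave the gene a length of 2644 bases in LNCaP and 1056 bases in that library, so the 7 counts made 0.75 TPM, against 0.19 TPM for the 6 counts of the highest LNCaP library.

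APOBEC3D, a cytoplasmic member with a pair of domains, had counts in 22Rv1 alone. It had 0 counts in all 6 LNCaP libraries. In 22Rv1 it had 16, 14 and 9 counts with NC-mimic, or 0.723, 0.904 and 0.726 CPM. With the mimic it had 2, 2.01 and 0.94 counts, which lie at or under the floor of 3 counts. APOBEC3A, the monocyte member, was at 0 in 11 libraries and had 1.07 counts in LNCaP mimic replicate 3, and APOBEC3G, the lymphocyte member best known for restricting HIV, was at 0 in all 12, so a level of APOBEC3G up to 0.247 CPM in any 1 library was not detectable at this depth.

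The comparison of the lines within the NC-mimic libraries was tested for the members other than APOBEC3D, whose 22Rv1 counts had chosen the family, with edgeR's quasi-likelihood test and Benjamini-Hochberg adjustment over all 17497 genes tested. The lines differ widely: 58.4% of the genes tested had an adjusted p under 0.05, 27.5% lower and 30.9% higher in 22Rv1. Of the other 6 members 3 passed the filter on low counts. APOBEC3H passed it through the LNCaP libraries, where it was high, so its result is no test. The 2 others, APOBEC3B and APOBEC3F, were called, both lower in 22Rv1, where such calls made up 27.5% of all genes tested. APOBEC3F had the larger of the downward differences, with a mean of 3.17 CPM in 22Rv1 against 17.3 CPM in LNCaP, a log2 fold change of -2.44 ± 0.33 (SE, n = 3 and 3, edgeR adjusted p = 0.000395). APOBEC3B was lower by less, with means of 19.5 against 29.7 CPM and a log2 fold change of -0.58 ± 0.15 (SE, edgeR adjusted p = 0.0087). That call was lost without LNCaP NC-mimic replicate 1 (edgeR adjusted p = 0.0503) and with all 12 libraries in 1 fit (edgeR adjusted p = 0.0746).

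APOBEC3D is given without a test, since its NC-mimic values in 22Rv1 were used to choose the family and it passed the filter through those libraries alone. With 39 counts in 22Rv1 and 0 in LNCaP it was 14.1-fold higher when 3 counts were put for the 0 of the LNCaP group. APOBEC3H had 12 counts in 22Rv1 against 37 in LNCaP, a log2 fold change of -1.62 ± 1.02 (SE). All 12 of those counts lay in 22Rv1 NC-mimic replicate 1, without which the 22Rv1 group was at 0 counts. The gene passed the filter on low counts through the LNCaP libraries, where it was high, so its edgeR adjusted p of 0.205 is no test of the difference. APOBEC3H reached 1 TPM in the LNCaP libraries alone, at 2.02, 1.34 and 1.08 TPM against 0.91, 0 and 0 TPM in 22Rv1. The gene thus entered limma on log2(TPM + 1) only through the group where it was high, so the limma adjusted p of 0.0308 gives no support. APOBEC3C had 0 counts in 22Rv1 against 9 in LNCaP, 2.76-fold lower when 3 counts were put for the 0, without a test. With the piR-4447944 mimic it had 7 counts in 22Rv1 against 10 in LNCaP. APOBEC3A and APOBEC3G had 0 counts in all 6 NC-mimic libraries. An exact two-sided permutation test of 3 against 3 libraries cannot go below p = 0.1, the value it gave for APOBEC3B, APOBEC3F and APOBEC3H.

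The same comparison in the piR-4447944 mimic libraries uses none of those libraries, but the same 2 lines. Same-numbered 22Rv1 libraries also deviated together (r across genes of 0.198, 0.167 and 0.357), so the 2 sets are not independent. Of 17283 genes tested 52.4% were called, 24.2% lower and 28.2% higher in 22Rv1. Of the 7 members 2 passed the filter, and both were called and lower. APOBEC3F stood at 3.42 against 17.3 CPM, a log2 fold change of -2.29 ± 0.43 (SE, n = 3 and 3, edgeR adjusted p = 0.0042). APOBEC3B stood at 14.3 against 30.9 CPM, a log2 fold change of -1.09 ± 0.32 (SE, edgeR adjusted p = 0.0258). Its call was lost when any 1 of the LNCaP mimic libraries was left out, with edgeR adjusted p of 0.0796, 0.0764 and 0.0578 without replicates 1, 2 and 3. Without replicate 3 of the 22Rv1 mimic group the log2 fold change of APOBEC3B was -0.78 and that of APOBEC3F -2.96. APOBEC3D had 4.95 counts against 0 and APOBEC3H 3 against 27.

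**Figure D2:**
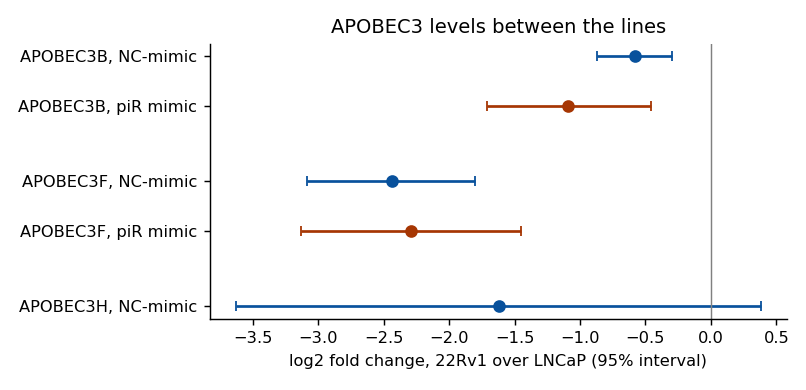
The log2 fold change of 22Rv1 over LNCaP is plotted on the horizontal axis with its 95% interval. Members that passed the filter on low counts are shown, in the NC-mimic or the piR-4447944 mimic libraries (APOBEC3D, at 0 in LNCaP, is left out since its fitted fold has no fixed size). APOBEC3F lies near -2.44 and -2.29 and APOBEC3B at -0.58 and -1.09. The interval of APOBEC3H includes 0 and is no test, since the gene passed the filter through its LNCaP counts.

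With the piR-4447944 mimic in LNCaP the members stayed within the spread of the libraries. APOBEC3B differed from NC-mimic by a log2 fold change of 0.07 ± 0.12 (SE, n = 3 and 3), APOBEC3F by 0.01 ± 0.15 and APOBEC3H by -0.27 ± 0.47, and the groups overlapped for all 3. The value of APOBEC3F was -0.03 on TPM. APOBEC3C had 10 counts with the mimic and 9 with NC-mimic.

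With the mimic in 22Rv1, APOBEC3B differed by -0.44 ± 0.34 on the log2 scale (SE, n = 3 and 3), and the groups overlapped. On CPM it was lower with the mimic in each of the 3 same-numbered pairs. In replicate 2 the gap was small (18.9 against 19.2 CPM), and on TPM the mimic library was higher (18.68 against 17.96). The replicate block gave -0.53 ± 0.27. Without replicate 3 of the mimic group the difference was -0.14. APOBEC3F differed by 0.12 ± 0.55 on CPM and by -0.05 ± 0.26 on log2(TPM + 1), so no direction was resolved. On CPM the difference was -0.52 without replicate 3 of the mimic group and 0.49 without replicate 3 of the NC-mimic group. With the replicate block it was 0.03 ± 0.37. APOBEC3H had 3 counts with the mimic and 12 with NC-mimic, in 1 library each.

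The length that RSEM gave APOBEC3F also varied between libraries. Its annotated transcripts reach 4496 bases at most, and RSEM gives each library the mean length of the transcripts it called. In 22Rv1 that length was 1772.08, 1537.11 and 2576.44 bases with NC-mimic and 1554.85, 1396.47 and 4496 bases with the mimic. Replicate 3 of the mimic group thus had all of its 94.06 counts on the longest transcript. It was the highest of the 6 libraries in CPM, at 5.84, and the lowest in TPM, at 1.89. In LNCaP the length was between 1751.24 and 2859.71 bases, and the lower level in 22Rv1 held on either scale, with 1.89 to 2.48 TPM in 22Rv1 against 8.60 to 11.65 TPM in LNCaP.

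**Figure D3:**
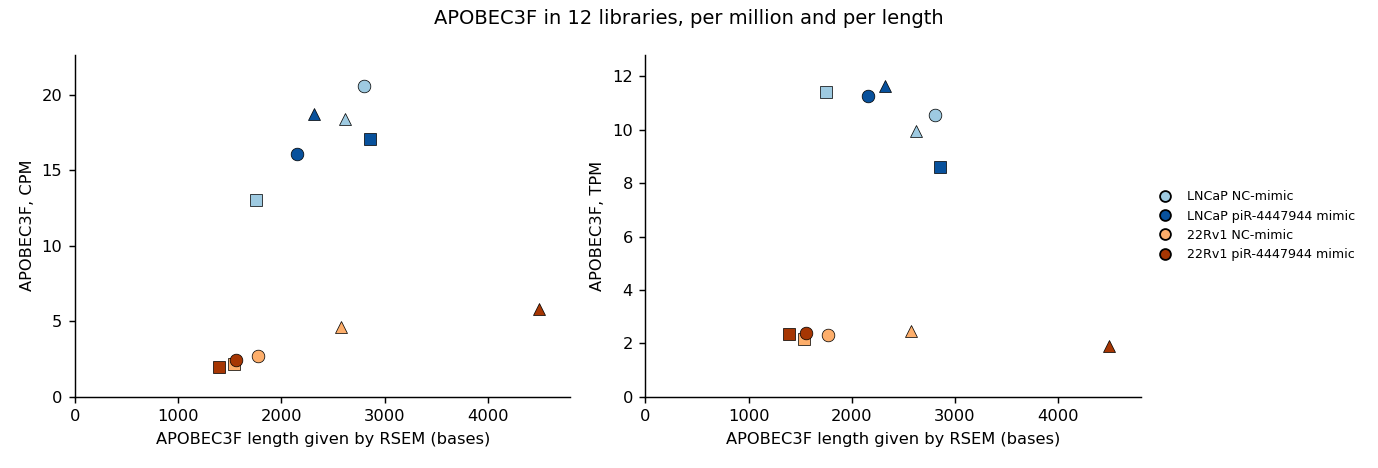
The level of APOBEC3F is plotted against the length RSEM gave the gene, in bases, with CPM on the vertical axis of the left panel and TPM on that of the right, 1 symbol per library (circle, square and triangle for replicates 1, 2 and 3). The lines are apart in both panels, and the 22Rv1 mimic library at 4496 bases is the highest of its line in CPM and the lowest in TPM.

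APOBEC3D was the member whose groups did not overlap with the mimic in 22Rv1, and it was this difference that singled out the family. Its pooled counts were 4.95 with the mimic and 39 with NC-mimic, a ratio of 0.13 after scaling for library size. Its log2 fold change was -2.83 ± 0.70 (SE, n = 3 and 3), with an SE of 1.15 without the filter on low counts. As these values chose the family, the SE is no test of the difference. In replicate 3 of the mimic group, however, the readthrough AL022318.4 had 21.06 counts, or 1.31 CPM, while it had 0 counts in the other 11 libraries. As the sequences above show, the readthrough holds no stretch of 100 bases that APOBEC3D lacks. When its counts were added to those of APOBEC3D, the 22Rv1 libraries had 16, 14 and 9 counts with NC-mimic and 2, 2.01 and 22 with the mimic, and the groups overlapped. The summed level in that library, 1.37 CPM, was the highest of the 6. The ratio of pooled counts was then 0.686, and 0.158 without replicate 3 of the mimic group. With the 7 counts of APOBEC3C added as well, the library had 29 counts (1.80 CPM) and the ratio was 0.87. In replicates 1 and 2 the sums were 0.138 and 0.111 CPM, under the range of 0.723 to 0.904 CPM with NC-mimic. The mimic group thus held libraries on both sides of the control range once the readthrough was counted, and how the reads of replicate 3 should be divided was not tested.

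**Figure D4:**
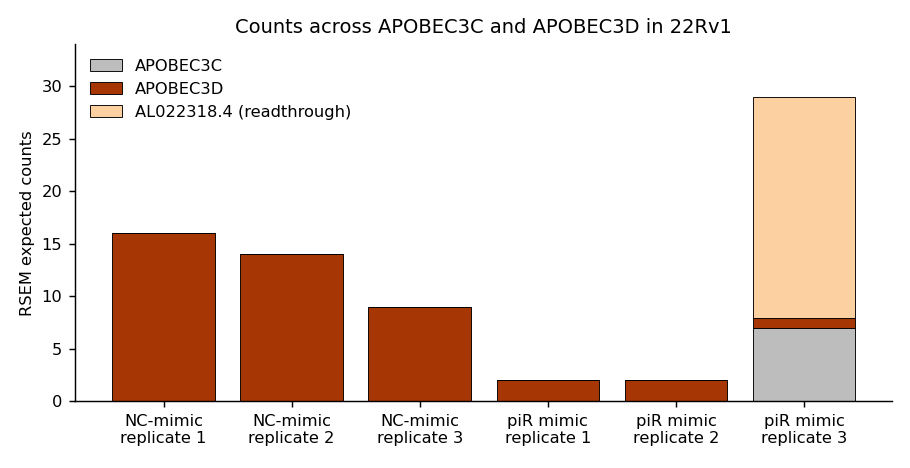
Stacked bars give the RSEM expected counts of APOBEC3C, APOBEC3D and the readthrough AL022318.4 in each of the 6 libraries of 22Rv1, on a linear axis from 0. The 3 NC-mimic libraries hold 16, 14 and 9 counts of APOBEC3D, whereas replicate 3 of the piR-4447944 mimic group holds 7 of APOBEC3C, 0.94 of APOBEC3D and 21.06 of the readthrough.

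Genes whose pattern over the 12 libraries was most like that of APOBEC3B and of APOBEC3F were ranked by the RMS difference of their log2 CPM, each centred on its own mean, over 18719 genes. For APOBEC3B, whose own RMS about its mean was 0.585, the nearest were CDK1, the kinase that drives mitosis, at 0.138, SRM (spermidine synthase) at 0.139 and MBTPS2, a protease of the Golgi, at 0.147, against a median of 0.791 over the genes ranked. CDK1 went in the same direction, which this ranking selects for, from 258 and 247 CPM in LNCaP with NC-mimic and the piR-4447944 mimic to 147 and 119 CPM in 22Rv1. For APOBEC3F, with an own RMS of 1.3, the nearest were SHROOM2 at 0.165, GRAMD1A at 0.196 and RALGAPA2 at 0.21, against a median of 1.36. Since the ranking used the same 12 libraries, these genes were chosen for a like division between the lines. SHROOM2 stood at 64.2 and 62.8 CPM in LNCaP and at 12.6 and 13.8 CPM in 22Rv1.

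Uracil made by these enzymes is removed by base excision repair. Of 18 genes for uracil removal and repair, all tested, 12 were higher and 1 lower in 22Rv1 with NC-mimic, where 30.9% of all genes tested were higher and 27.5% lower, with a median log2 fold change of 0.51 against 0.01 over all genes. With the piR-4447944 mimic 9 were higher and 2 lower, where 28.2% of all genes tested were higher and 24.2% lower, with a median of 0.48 against 0.04, and 9 of the genes were called in the same direction in both sets of libraries, 8 higher and 1 lower. DNA ligase LIG1 was the most different, at 140 ± 51.3 CPM (SD, n = 3) in 22Rv1 against 22.4 ± 1.09 in LNCaP with NC-mimic. UNG, the main uracil-DNA glycosylase, stood at 225 ± 33.7 against 62.7 ± 2.21 CPM, a log2 fold change of 1.87 ± 0.12 (SE, edgeR adjusted p = 9.6e-06). DUT, which keeps dUTP out of DNA, differed by 1.22 ± 0.17 and XRCC1, the scaffold of single-strand break repair, by 1.13 ± 0.13. APEX1, the endonuclease that cuts at abasic sites, was the 1 gene lower in both sets, by -0.41 ± 0.09 with NC-mimic. MBD4 (a thymine and uracil glycosylase) was called lower only in the mimic libraries, a difference between the sets that was not tested.

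**Figure D5:**
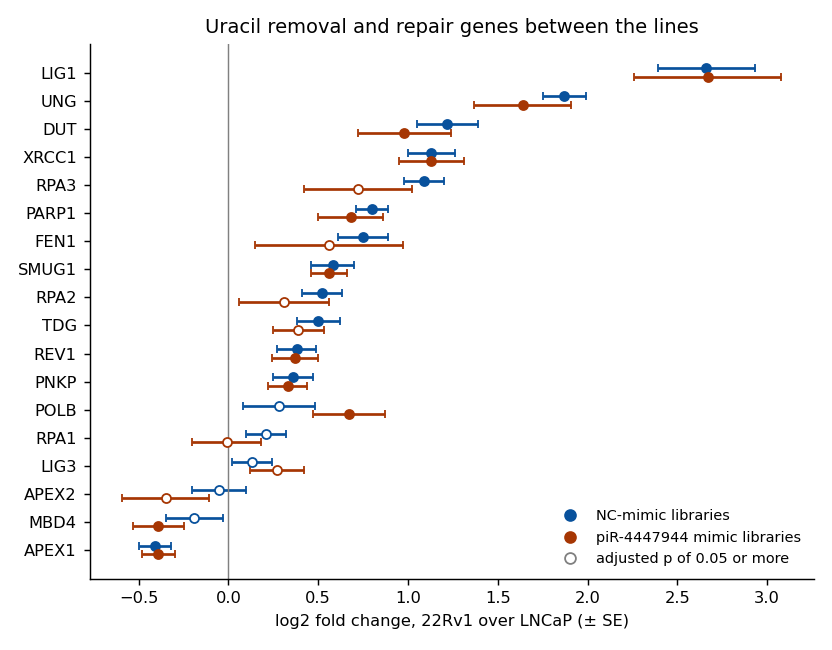
Each of the 18 uracil removal and repair genes has a log2 fold change of 22Rv1 over LNCaP on the horizontal axis with its SE, in the NC-mimic libraries and in the piR-4447944 mimic libraries, and filled symbols mark an adjusted p under 0.05. LIG1, UNG, DUT and XRCC1 are highest in both sets and APEX1 lies below 0 in both.

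The counts of the next lists are read against the same shares of all genes tested, 58.4% called with NC-mimic and 52.4% with the piR-4447944 mimic. Factors that control APOBEC3 transcription were called in both directions. Of 10 genes of type I interferon signalling, 4 were lower and none higher in 22Rv1 with NC-mimic, and 3 were lower and none higher with the piR-4447944 mimic, so fewer were called than that share in both sets. IRF1, an interferon-induced transcription factor, stood at 2.17 ± 0.352 CPM (SD, n = 3) in 22Rv1 against 9.78 ± 1.43 in LNCaP, and IRF7, the factor behind interferon alpha, at 7.71 ± 0.496 against 18.9 ± 1.95. STAT2, a transcription factor of the interferon response, differed by -0.50 ± 0.09 on the log2 scale, and both IRF1 and STAT2 were called lower in both sets. Of 6 NF-kB factors, which induce APOBEC3B in several tumour cells, 2 were higher (MAP3K14 and NFKB2, by 0.47 and 0.34) and 2 lower (RELB and NFKB1, by -1.61 and -1.50) with NC-mimic, and 3 were higher and 1 lower with the piR-4447944 mimic. Of 11 genes of the DREAM and B-MYB complexes, which repress and activate cell cycle genes including APOBEC3B, 6 were higher and 1 lower with NC-mimic, led by LIN9 (1.46 ± 0.22), TFDP1 (1.29 ± 0.10), FOXM1 (0.96 ± 0.20) and LIN52 (0.92 ± 0.27). With the piR-4447944 mimic 3 were higher and none lower, and these 3, LIN9, RBBP4 and TFDP1, were also higher with NC-mimic.

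Other restriction factors, which block retroviruses by other routes, were called in both directions. Of 17 tested with NC-mimic 6 were higher and 7 lower in 22Rv1, and of 18 tested with the piR-4447944 mimic 5 were higher and 6 lower, with 58.4% and 52.4% of all genes tested called. Of these factors 10 were called in the same direction in both sets. SLFN11, which stalls translation of viral proteins, was at 52.0 ± 1.79 CPM (SD, n = 3) in 22Rv1 and at 0.0176 ± 0.0304 in LNCaP. SERINC5, which lowers the infectivity of virions, was at 60.7 ± 8.39 against 333 ± 9.13 CPM. IFITM3, a membrane protein that blocks viral entry, was at 20.6 ± 5.97 against 56.2 ± 4.55 CPM, and BST2, which tethers virions to the cell, at 6.73 ± 7.35 against 0.992 ± 0.437 CPM. BST2 was not called with the piR-4447944 mimic, at 5.54 ± 4.78 against 2.52 ± 0.711 CPM (edgeR adjusted p = 0.17). IFITM genes are close copies of each other, so the division of reads among them is uncertain. Of the 7 genes of the CUL5 ligase that HIV Vif uses to degrade APOBEC3 proteins, ARIH2 was higher (0.53 ± 0.08) and CUL5 lower (-0.55 ± 0.12) with NC-mimic. With the piR-4447944 mimic ARIH2 was again higher and ELOC lower (-0.28 ± 0.10).

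Of 6 genes of the wider AID/APOBEC group, counting the RNA-binding partners of APOBEC1, 2 were tested between the lines, and A1CF, the partner that guides APOBEC1 to its mRNA target, was called, at 38.0 ± 12.7 CPM (SD, n = 3) in 22Rv1 against 0.0933 ± 0.0364 in LNCaP with NC-mimic. It was also higher with the piR-4447944 mimic, at 31.0 ± 6.90 against 0.218 ± 0.236 CPM. Of 5 adenosine deaminase genes 2 were tested, with ADAR, the main RNA editor, at 431 ± 38.7 CPM (SD, n = 3) in 22Rv1 and 433 ± 11.0 in LNCaP with NC-mimic. ADARB1, another RNA editor, was lower in 22Rv1 with NC-mimic (-0.42 ± 0.14), with none called with the piR-4447944 mimic. Of the 10 protein-coding genes that flank the cluster, 5 on each side, 1 was higher and 4 lower in 22Rv1 with NC-mimic, and 1 was higher and 2 lower with the piR-4447944 mimic, no larger a share than the 58.4% and 52.4% of all genes tested. The Polycomb gene CBX7 differed by 0.93 ± 0.12, CBX6 by -0.80 ± 0.15, the synaptic vesicle gene SYNGR1 by -0.79 ± 0.22 and GTPBP1 by -0.39 ± 0.10 with NC-mimic.

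Within each line few genes of these lists met a criterion with the mimic. With the filter on low counts no gene had an adjusted p under 0.05 in edgeR in either line, whereas 433 genes in LNCaP and 250 in 22Rv1 had an unadjusted p under 0.05, and DESeq2 called 2 and 1 genes and limma on log2(TPM + 1) 1 and 2. Without that filter edgeR called 46 genes in LNCaP and 0 in 22Rv1, where 532 had an unadjusted p under 0.05. The study's own criterion was p under 0.05 before adjustment, with a log2 fold change beyond 0.2 in either direction. The study applied it to DESeq2 with shrunken fold changes and reported genes that met it in both lines. Here it was applied to edgeR in each line alone, without that shrinkage. It then took 2.22% of the 16244 genes tested in LNCaP and 1.48% of the 16898 tested in 22Rv1, or 250 genes, and 420 in 22Rv1 with the replicate block. In LNCaP 5 genes of the lists met it, all higher with the mimic and all with an edgeR adjusted p of 0.999. They were 2 of 10 interferon signalling genes (IRF9, 12.3 against 7.79 CPM, and IRF3, 67.0 against 57.9 CPM) and 3 of 16 restriction factors tested (BST2, 2.52 against 0.992 CPM, IFITM1, 3.48 against 1.91 CPM, and IFITM3, 64.8 against 56.2 CPM). In 22Rv1 IRF7 was higher with the mimic, at 13.9 ± 4.41 CPM (SD, n = 3) against 7.71 ± 0.496, and IFITM3 lower, at 13.2 ± 1.80 against 20.6 ± 5.97 CPM, both with an edgeR adjusted p of 0.999. None of the genes for uracil removal and repair, the NF-kB factors, the DREAM and B-MYB genes, the CUL5 ligase, the other AID/APOBEC genes, the adenosine deaminases or the flanking genes met the criterion in either line by edgeR.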

How the data were processed

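Total RNA was extracted with a miRNeasy kit, and mRNA was sequenced in 12 libraries. The authors used STAR 2.7.1a for alignment to hg38 and RSEM 1.3.0 for quantification. Their annotation release was not given in the sources used here. The deposited expected counts are RSEM's estimates of reads, not normalized. The TPM that the authors deposited are scaled by effective gene length and hold no depth.

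Expected counts were rounded and tested with edgeR 4.0.16 (R 4.3.3; TMM, filterByExpr, glmQLFit and glmQLFTest), within the 6 libraries of each comparison, with Benjamini-Hochberg adjustment. CPM use TMM library sizes, and SEs derive from the estimate and its test statistic. Alternatives were DESeq2 1.42.0, limma 3.58.1 on log2(TPM + 1) and log2(TPM + 0.1) for genes at 1 TPM or more in at least 3 libraries, other size factors, no filter, all 12 libraries, a replicate block and leaving out each library. The fits were tested on simulated data. Shared stretches and coding starts came from GENCODE transcripts on hg38.

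Named genes were the 7 members in every library, between lines at most 4 called genes per list by absolute log2 fold change, all list genes meeting the study's rule with the mimic, and the 3 nearest genes of the 2 highest members. APEX1 and MBD4 were named after their values were seen. Another item that the rule names is not reported here. Members and lists were chosen with earlier results of these data known.

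Same-numbered libraries of 22Rv1 deviated together from their group means (r across genes of 0.198, 0.167 and 0.357), which was taken as pairing of NC-mimic and mimic libraries in 22Rv1, from the values alone.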

Additional observations from a re-analysis of the deposited data

Results flagged for a closer look

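The readthrough AL022318.4 belongs to no comparison above, and it had 21.06 expected counts in replicate 3 of the 22Rv1 piR-4447944 mimic group against 0 in every NC-mimic library.

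IFITM1 and IFITM3 had differences of opposite sign in the lines: every mimic library lay above the mean of the NC-mimic libraries in LNCaP and below it in 22Rv1. The log2 fold change of IFITM1 was 0.88 in LNCaP and -2.10 in 22Rv1, where it did not meet the study's criterion, where replicate 1 was higher with the mimic (2.48 against 1.72 CPM), and where the NC-mimic mean rests on replicate 3 at 11.1 CPM, with replicate 2 at 2.26 CPM. That of IFITM3 was 0.22 in LNCaP and -0.64 in 22Rv1, with 63.2, 64.9 and 66.4 CPM in the LNCaP mimic libraries and 12.5, 15.2 and 11.8 CPM in those of 22Rv1. The difference between the lines was not tested for either gene.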

How the results depend on the processing

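APOBEC3B and APOBEC3F kept the direction of their differences between the lines in every alternative, and list genes were rerun as counts only. Low counts limit APOBEC3A, APOBEC3C, APOBEC3D, APOBEC3G and APOBEC3H, and the large spread of the 22Rv1 libraries limits small differences there. Of the members other than APOBEC3D, 2 were called between the lines in each set. With NC-mimic this was 1 with all 12 libraries and 1 to 3 with 1 library left out. It was 1 without LNCaP replicate 1, and 3, counting APOBEC3H, without 22Rv1 replicate 1. With the mimic it was 1 to 2 with 1 library left out (1 without any 1 of the LNCaP libraries). The list genes called in the mimic libraries were then 22 to 55 against 35, with 22 without LNCaP mimic replicate 1 or 2 and 55 without 22Rv1 mimic replicate 3. In the other comparisons the replicate numbers were not taken as pairing (r of same-numbered libraries between 0.0053 and 0.188). The highest of these, 0.188 for replicate 3 in LNCaP, lay above the 0.167 of replicate 2 in 22Rv1, and an effect shared by those LNCaP libraries was not tested. Apart from the 22Rv1 genes under the study's rule, the block moved no count by over 1.5 times.

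With the mimic in LNCaP 361 genes met the study's rule. This was 891 without the filter, 578 and 560 in limma with pseudocounts of 1 and 0.1, 168 with all 12 libraries, and 284 to 1008 with 1 library left out (1008 without LNCaP NC-mimic replicate 3). The 5 list genes became 1 with all 12 libraries and 3 to 6 with 1 left out, with 3 without mimic replicate 1 or 2. In 22Rv1 the 250 genes became 532 without the filter, 459 and 449 in limma, 1232 with all 12 libraries, 420 with the replicate block and 183 to 376 with 1 library left out (376 without mimic replicate 3). The 2 list genes became 4 with all 12 libraries and 0 to 3 with 1 left out, with 0 without NC-mimic replicate 2 and 1 without replicate 3. The ratio of pooled APOBEC3D counts, 0.13, became 0.686 with the readthrough added and 0.87 with APOBEC3C as well, both chosen after seeing the data, and lay between 0.111 and 0.158 with 1 library left out. Apart from the added counts and the single libraries left out, the cause was not tested.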
